A study of Mus musculus with 18 samples.

Results

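The genes described here are 46 genes of DNA replication and S phase, named by their role in origin licensing, DNA synthesis, nucleotide supply and S phase repair. Their signals were read on 18 Affymetrix mouse gene arrays of RNA from cultured neurospheres, free-floating aggregates of neural stem and progenitor cells that are grown in culture and can be differentiated. Where several probe sets carried the symbol of a gene alone, the one that was brightest on average over the 18 arrays stood for it. Of the 46 genes, 44 had such a probe set, and all 44 passed the filter on low signals. That filter kept genes above the 25th percentile of their array on at least 3 arrays, 19016 of 22180 in all. Rfc4, a clamp loader subunit, and Ccne2, a cyclin E, were found only on probe sets shared with another gene, and they are not analysed here. All values are on the deposited log2 scale, and a difference of 1 is taken as a 2-fold difference in signal.

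The 6 groups had 3 arrays each. The genotypes were mosaic (Pcdh19 knockout cells mixed with wild type cells), Pcdh19 knockout and wild type, and cultures of each were sampled after 4 days of differentiation and at day 0. Pcdh19 is an X-linked gene that encodes a protocadherin, a cell adhesion protein, and the design sets genotypes and days against each other. Per the design text the replicates are technical, and no label ties them to separate animals or cultures, so every p-value measures only the spread between these samples. The labels give neither age nor strain, the share of each genotype in the mosaic, nor a batch.

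The array signals were set against the labels first. Pcdh19 averaged 6.38 ± 0.79 in mosaic, 5.70 ± 0.17 in knockout and 6.90 ± 0.09 in wild type cultures at day 4, against 6.0 ± 0.33 in mosaic, 5.51 ± 0.15 in knockout and 6.78 ± 0.11 in wild type cultures at day 0 (SD, n = 3). The knockout arrays lay below the wild type arrays on both days, although the adjusted p from limma was 0.195 at day 4 and 0.855 at day 0. Whether the probe set covers the deleted stretch is not known here. The third mosaic array at day 4 had a Pcdh19 signal of 5.52, inside the range of the knockout arrays. All samples are labelled female, and the data went against that label. Xist, the RNA that silences 1 X chromosome in female cells, lay between 2.68 and 3.98 and above the array median on 0 of 18 arrays, while the Y-linked genes Kdm5d, Uty and Eif2s3y lay above it on 18 of 18. Cross-hybridisation of those probe sets was not tested. Neural stem cell markers had a mean level of 8.90 to 9.03 at day 4 and 9.64 to 9.81 at day 0, against an array median near 4.93. Astrocyte and oligodendrocyte markers also lay above that median, so these levels do not verify the label.

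A cell copies its genome once per division. In G1 the origin recognition complex, Cdc6 and Cdt1 load the Mcm2 to Mcm7 helicase ring onto origins. In S phase Cdc45 and the GINS complex turn that ring into an active helicase. Behind it, primase and polymerase alpha lay down primers, and the polymerases delta and epsilon extend them on a sliding clamp. Many of these genes are targets of E2F transcription factors, which are held in check by the retinoblastoma family of pocket proteins when cells leave the cycle. Neural progenitors do so as they differentiate into neurons and glia.

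Promoter sequence is shown for the genes at both ends of the response to differentiation, so that the letters can be set beside the values that follow. Windows of 250 bases before to 50 bases after the start were taken from RefSeq (build GRCm38.p6), which gave 43 windows for 38 of the 46 genes. Mcm4, Gins1, Gins2, Gins4, Prim2, Pole, Rfc2 and Ccne2 had no entry. Each line is printed 5′ to 3′ along the gene, and capitals mark the words searched for on both strands. These were the E2F-like words TTTCCCGC, TTTGGCGC and TTTCGCGC, the NF-Y word CCAAT and the CHR word TTTGAA. TTTGGCGC on one strand and TTTCGCGC on the other can share letters, as they did in Mcm5 and Mcm6. Among the genes with a window, Rrm2 (chr12:24708004-24708303 on the plus strand), Pole2 (chr12:69228141-69228440 on the minus strand) and Pola1 (chrX:93632106-93632405 on the minus strand) had the lowest mean change over the 3 genotypes.
Rrm2: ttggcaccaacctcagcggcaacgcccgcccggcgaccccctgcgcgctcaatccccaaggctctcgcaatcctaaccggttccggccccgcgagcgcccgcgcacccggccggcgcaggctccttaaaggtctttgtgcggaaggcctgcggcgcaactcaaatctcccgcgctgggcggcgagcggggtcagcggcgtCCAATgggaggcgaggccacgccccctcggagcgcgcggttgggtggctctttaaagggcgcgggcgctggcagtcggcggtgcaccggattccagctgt
Pole2: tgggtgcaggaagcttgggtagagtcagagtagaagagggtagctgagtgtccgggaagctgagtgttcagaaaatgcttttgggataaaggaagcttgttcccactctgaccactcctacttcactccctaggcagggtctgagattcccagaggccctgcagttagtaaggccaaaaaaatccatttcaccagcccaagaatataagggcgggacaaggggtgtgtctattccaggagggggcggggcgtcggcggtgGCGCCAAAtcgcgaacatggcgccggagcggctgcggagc
Pola1: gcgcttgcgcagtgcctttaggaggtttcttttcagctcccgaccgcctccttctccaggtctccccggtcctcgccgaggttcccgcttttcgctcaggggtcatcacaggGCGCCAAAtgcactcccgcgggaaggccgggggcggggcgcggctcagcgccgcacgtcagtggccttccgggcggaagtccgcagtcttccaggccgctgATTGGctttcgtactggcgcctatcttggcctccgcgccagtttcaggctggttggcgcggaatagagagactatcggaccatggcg

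Ung (chr5:114130185-114130484 on the plus strand), Orc1 (chr4:108579204-108579503 on the plus strand) and Ccne1 (chr7:38107441-38107740 on the minus strand) had the highest mean change, above 0.
Ung: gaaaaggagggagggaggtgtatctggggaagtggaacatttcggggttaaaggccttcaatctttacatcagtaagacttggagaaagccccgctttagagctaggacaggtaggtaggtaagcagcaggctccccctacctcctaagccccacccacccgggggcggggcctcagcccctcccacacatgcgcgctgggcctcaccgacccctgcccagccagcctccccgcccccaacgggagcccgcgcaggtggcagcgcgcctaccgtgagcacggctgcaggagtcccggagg
Orc1: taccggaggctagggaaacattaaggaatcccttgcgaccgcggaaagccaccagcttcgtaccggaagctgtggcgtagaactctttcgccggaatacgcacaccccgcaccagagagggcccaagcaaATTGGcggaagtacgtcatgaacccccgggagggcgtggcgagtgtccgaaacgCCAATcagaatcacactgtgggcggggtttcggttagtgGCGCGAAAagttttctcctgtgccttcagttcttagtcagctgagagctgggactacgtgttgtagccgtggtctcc
Ccne1: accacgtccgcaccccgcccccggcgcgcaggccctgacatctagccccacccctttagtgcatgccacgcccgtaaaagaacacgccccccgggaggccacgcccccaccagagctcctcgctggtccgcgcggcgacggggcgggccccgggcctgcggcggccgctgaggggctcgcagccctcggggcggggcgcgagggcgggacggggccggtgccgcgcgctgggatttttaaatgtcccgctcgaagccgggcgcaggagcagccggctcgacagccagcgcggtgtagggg

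In these 6 windows, Rrm2 held CCAAT at -50 to -46 from the start and no E2F-like word. Pole2 held TTTGGCGC on the minus strand at 11 to 18, and Pola1 held TTTGGCGC at -138 to -131 and CCAAT at -37 to -33, both on the minus strand of the gene. Orc1, whose signal was not called different in any genotype, held TTTCGCGC at -27 to -20 and CCAAT at -120 to -116 and at -66 to -62. Ung and Ccne1 held none of the 5 words. At least 1 of the 3 E2F-like words stood in the windows of 14 of 38 member genes (36.8%), against 2.12% of the 27025 genes with a window and 1.84% of the 32851 windows. Among members these were 6 of 12 that fell in all 3 genotypes, 4 of 11 that fell in 1 or 2, and 4 of 14 that were called in none. CCAAT stood in 22 of 38 (57.9%), against 41.1% of all genes with a window, and TTTGAA in 4 of 38 (10.5%), against 20.2%. CCAAT was found in 10 of the 12 members that fell in all 3 genotypes. It stood in 6 of the 11 that fell in 1 or 2 and in 6 of the 14 called in none. These are counts of letters in short windows, given with no test.

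Much of the replication machinery was lower at day 4 than at day 0 in each genotype, and none of it was higher by the test. Of the 44 genes, 20 fell in mosaic, 22 in knockout and 22 in wild type cultures at day 4 relative to day 0 (limma, Benjamini-Hochberg adjusted p under 0.05 over 19016 genes), and 0 rose. Over all genes tested, 11.9% fell in mosaic, 12.4% in knockout and 16.3% in wild type cultures, while 14.4%, 15.0% and 17.2% rose in the same order. The median log2 fold change of the 44 genes was -0.38 in mosaic, -0.43 in knockout and -0.35 in wild type cultures, beside 0.02, 0.02 and 0.09 over all genes tested. The estimate was below 0 for 38 genes in mosaic, 42 in knockout and 37 in wild type cultures. In bulk RNA, fewer cells in S phase and less of these RNAs per cell cannot be told apart. In wild type cultures 3280 genes rose and 3106 fell, and after quantile normalization 4091 rose and 2556 fell, with 17 of the 44 genes lower.

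**Figure D1:**
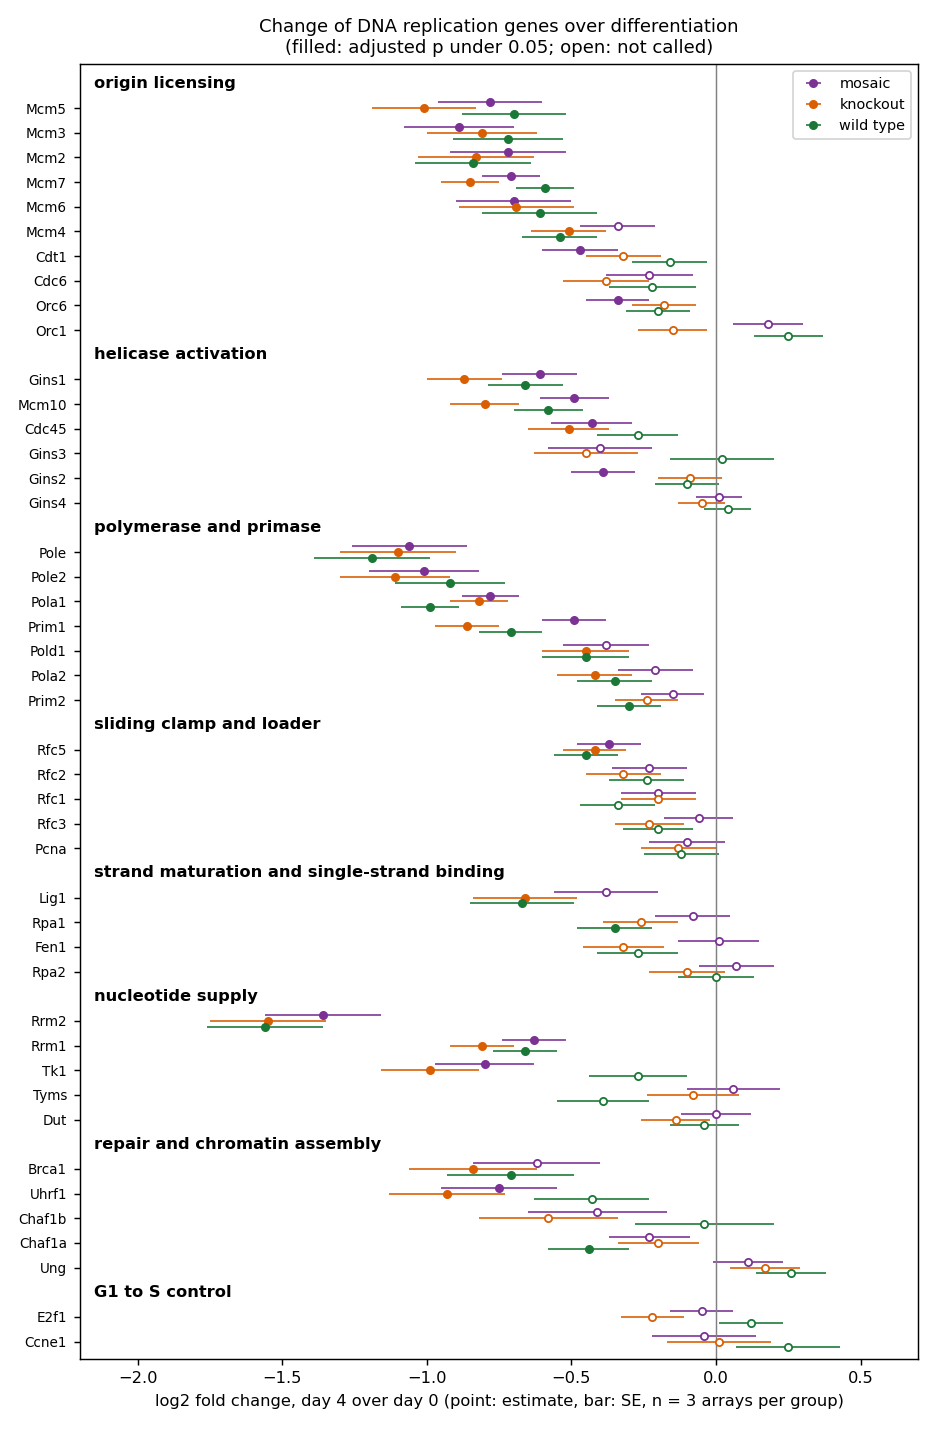
Log2 fold change of day 4 over day 0 for each of the 44 genes, ordered by role and by mean change, with 1 point per genotype, bars for the standard error, and filled points for an adjusted p under 0.05. Filled points all lie left of 0, from -0.30 (Prim2, wild type) to -1.56 (Rrm2, wild type), and the genes of origin licensing and the polymerases hold most of them.

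A group of 14 genes fell in all 3 genotypes, made up of Mcm2, Mcm3, Mcm5, Mcm6, Mcm7, Mcm10, Gins1, Pola1, Pole, Pole2, Prim1, Rfc5, Rrm1 and Rrm2. Cdc45, Tk1 and Uhrf1 were called in mosaic and knockout cultures, and Mcm4, Pola2, Pold1, Lig1 and Brca1 in knockout and wild type cultures. Cdt1, Gins2 and Orc6 were called in mosaic cultures alone, and Chaf1a, Prim2 and Rpa1 in wild type cultures alone. For none of these 14 genes with partial patterns was the difference between genotypes itself called. The other 16 genes were called in none. Of the calls made in 1 genotype alone, that of Rpa1 was lost under 11 of 16 alternatives, those of Orc6 and Prim2 under 8, that of Cdt1 under 5 and those of Gins2 and Chaf1a under 4, a stricter adjusted p of 0.01 counted among them. Of the calls made in both knockout and wild type cultures, those of Pola2 were lost under 5 and 9 and those of Pold1 under 7 and 6 in that order. Those of Brca1 were lost under 1 and 4 and those of Lig1 under 2 and 1, while those of Mcm4 held. Of the calls made in both mosaic and knockout cultures, those of Cdc45 were lost under 6 and 1 in that order. Uhrf1 lost its call under 3 alternatives in mosaic cultures, and the calls of Tk1 held. Among the 14 genes that fell in all 3 genotypes, Mcm2, Mcm6 and Rfc5 lost a call under 3 to 5 alternatives in at least 1 genotype. Without regard to the test, every day 4 array lay below every day 0 array of its genotype for 21 genes in mosaic, 26 in knockout and 28 in wild type cultures, where 17.8%, 17.1% and 21.9% of all genes tested did so. For 13 genes all 9 day 4 arrays lay below all 9 day 0 arrays, against 9.09% of all genes tested. They were Mcm5, Mcm7, Mcm10, Cdc45, Gins1, Pola1, Prim1, Pole, Pole2, Rfc5, Rrm1, Rrm2 and Tk1.

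Origin licensing genes fell in 7 of 10 cases in mosaic, 6 in knockout and 6 in wild type cultures, with medians of -0.59, -0.60 and -0.56 in that order. The helicase subunits carried this. Mcm5, a subunit of the Mcm2 to Mcm7 ring, had signals of 6.54, 6.78 and 7.18 in mosaic, 6.14, 6.62 and 6.73 in knockout and 6.56, 6.91 and 6.82 in wild type cultures at day 4, against 7.75, 7.57 and 7.53 in mosaic, 7.45, 7.80 and 7.27 in knockout and 7.34, 7.53 and 7.52 in wild type cultures at day 0. The highest day 4 value, on the third mosaic array, was still under the lowest day 0 value, and the groups did not overlap in any genotype. The log2 fold changes were -0.78 ± 0.18 in mosaic, -1.01 ± 0.18 in knockout and -0.70 ± 0.18 in wild type cultures (limma adjusted p = 0.00289, 0.000348 and 0.00592). Mcm3, another subunit of the ring, had 5.98, 6.63 and 6.50 in mosaic, 5.88, 6.10 and 6.32 in knockout and 6.23, 6.40 and 6.28 in wild type cultures at day 4, against 7.56, 7.19 and 7.01 in mosaic, 6.98, 7.16 and 6.59 in knockout and 6.92, 7.26 and 6.88 in wild type cultures at day 0. The days again did not overlap within a genotype, and the changes were -0.89 ± 0.19 in mosaic, -0.81 ± 0.19 in knockout and -0.72 ± 0.19 in wild type cultures. Mcm2 (-0.72, -0.83 and -0.84 in mosaic, knockout and wild type cultures), Mcm7 (-0.71, -0.85 and -0.59) and Mcm6 (-0.70, -0.69 and -0.61) also fell in each. Mcm4 fell in knockout (-0.51 ± 0.13) and wild type cultures (-0.54 ± 0.13) and had -0.34 ± 0.13 in mosaic cultures (adjusted p = 0.0748).

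Among the loading factors, Cdt1 and Orc6 were called in mosaic cultures, and Cdc6 and Orc1 in none. Cdt1 fell in mosaic cultures (-0.47 ± 0.13, adjusted p = 0.0143) and had -0.32 in knockout and -0.16 in wild type cultures, neither of them called. Orc6, a subunit of the origin recognition complex, fell in mosaic cultures (-0.34 ± 0.11) and had -0.18 in knockout and -0.20 in wild type cultures. The call of Orc6 was lost without mosaic replicate 1 or 2 at day 0 and without mosaic replicate 1 or 3 at day 4, and its adjusted p ran from 0.0176 to 0.133 over all alternatives. Cdc6, the loader that works beside Cdt1, was called in none (-0.23, -0.38 and -0.22 in mosaic, knockout and wild type cultures). Orc1, the largest subunit of the origin recognition complex, had 4.54, 4.52 and 4.47 in mosaic, 4.31, 4.21 and 4.44 in knockout and 4.46, 4.88 and 4.55 in wild type cultures at day 4, against 4.42, 4.40 and 4.18 in mosaic, 4.25, 4.56 and 4.59 in knockout and 4.43, 4.30 and 4.41 in wild type cultures at day 0. Its day 4 arrays lay above its day 0 arrays in mosaic and in wild type cultures and overlapped them in knockout cultures. The changes of 0.18 ± 0.12 in mosaic, -0.15 ± 0.12 in knockout and 0.25 ± 0.12 in wild type cultures did not pass the test (adjusted p = 0.319, 0.417 and 0.106). Orc1 and Ung were the 2 genes of 44 with a mean signal under the array median.

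**Figure D2:**
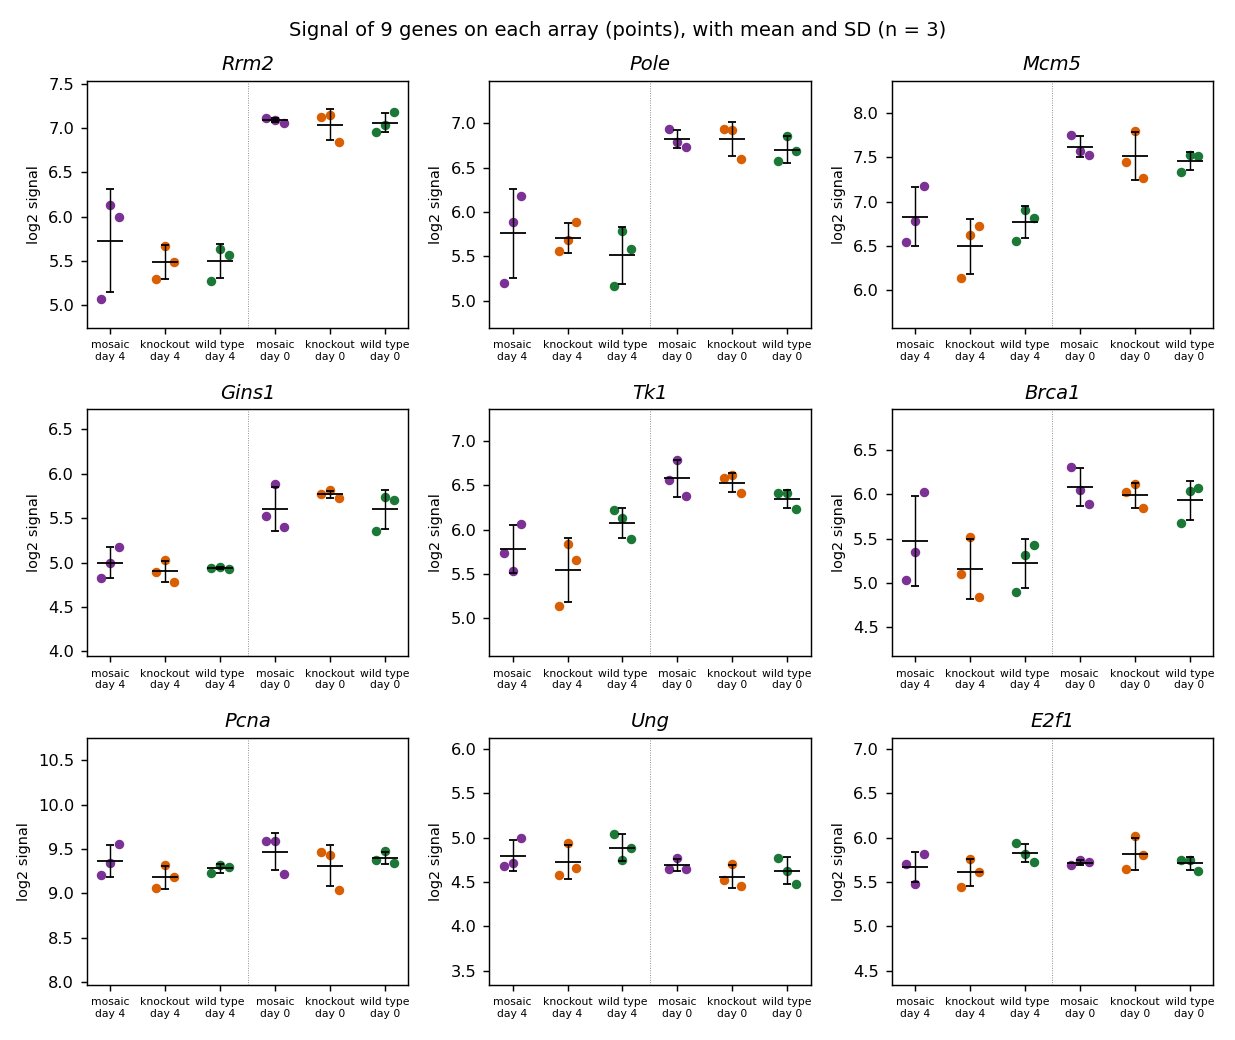
Log2 signal of 9 replication genes on each of the 18 arrays, with day 4 groups left of day 0 groups, points for arrays, horizontal lines for means and bars for the SD (n = 3). Rrm2, Pole, Mcm5 and Gins1 separate by day in each genotype, whereas Ung and E2f1 overlap in each and Pcna overlaps in mosaic and knockout cultures.

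Helicase activation genes differed in the size of their change and in their calls. Gins1, Mcm10 and Cdc45 carried most of the calls, with 4 of 6 genes lower in mosaic, 3 in knockout and 2 in wild type cultures. Gins1, a subunit of the 4-part GINS complex, had 4.82, 4.99 and 5.18 in mosaic, 4.89, 5.03 and 4.78 in knockout and 4.94, 4.95 and 4.93 in wild type cultures at day 4, against 5.53, 5.89 and 5.40 in mosaic, 5.77, 5.82 and 5.73 in knockout and 5.35, 5.74 and 5.70 in wild type cultures at day 0. Each day 4 array was below each day 0 array, and the 3 wild type arrays at day 4 were nearly equal. The changes were -0.61 ± 0.13 in mosaic, -0.87 ± 0.13 in knockout and -0.66 ± 0.13 in wild type cultures (adjusted p = 0.00179, 7.21e-05 and 0.000914). Mcm10, which helps to start the helicase, fell by similar amounts (-0.49, -0.80 and -0.58 in mosaic, knockout and wild type cultures). Cdc45, which joins the GINS complex on the active helicase, fell in mosaic (-0.43 ± 0.14) and knockout cultures (-0.51 ± 0.14) and had -0.27 ± 0.14 in wild type cultures (adjusted p = 0.149).

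Of the other GINS subunits, whose proteins work in the same complex as Gins1, Gins2 was called in mosaic cultures, and Gins3 and Gins4 in none. Gins4 had 7.88, 7.92 and 7.97 in mosaic, 7.75, 7.97 and 7.97 in knockout and 7.81, 7.85 and 7.76 in wild type cultures at day 4, against 7.89, 7.87 and 7.98 in mosaic, 7.89, 7.92 and 8.01 in knockout and 7.69, 7.73 and 7.88 in wild type cultures at day 0. All 18 values lay between 7.69 and 8.01 and the days overlapped in every genotype, with changes of 0.01 ± 0.08 in mosaic, -0.05 ± 0.08 in knockout and 0.04 ± 0.08 in wild type cultures. Gins3 had 6.01, 6.25 and 6.41 in mosaic, 6.21, 5.94 and 6.37 in knockout and 5.97, 6.85 and 6.23 in wild type cultures at day 4, against 6.68, 6.68 and 6.52 in mosaic, 6.58, 6.81 and 6.47 in knockout and 6.29, 6.43 and 6.26 in wild type cultures at day 0. In mosaic and knockout cultures its day 4 arrays lay below its day 0 arrays, while in wild type cultures the second day 4 array was the highest of all 18. Its changes of -0.40 ± 0.18 in mosaic, -0.45 ± 0.18 in knockout and 0.02 ± 0.18 in wild type cultures were not called (adjusted p = 0.111, 0.0738 and 0.927). Gins2 had 5.88, 5.68 and 6.02 in mosaic, 5.73, 6.08 and 6.09 in knockout and 5.85, 5.90 and 5.96 in wild type cultures at day 4, against 6.23, 6.37 and 6.16 in mosaic, 5.97, 6.17 and 6.04 in knockout and 5.88, 6.09 and 6.04 in wild type cultures at day 0. It fell in mosaic cultures (-0.39 ± 0.11, adjusted p = 0.0144), where the days did not overlap, and had -0.09 ± 0.11 in knockout and -0.10 ± 0.11 in wild type cultures, where they did.

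Among the replicative polymerases and primase, 4 of 7 genes were lower in mosaic, 6 in knockout and 7 in wild type cultures. Pole, the catalytic subunit of the leading strand polymerase epsilon, had 5.20, 5.89 and 6.18 in mosaic, 5.56, 5.68 and 5.89 in knockout and 5.16, 5.78 and 5.58 in wild type cultures at day 4, against 6.93, 6.79 and 6.73 in mosaic, 6.93, 6.92 and 6.60 in knockout and 6.57, 6.86 and 6.69 in wild type cultures at day 0. The mosaic arrays at day 4 were spread widest, and still no day 4 array reached the day 0 arrays. The changes were -1.06 ± 0.20 in mosaic, -1.10 ± 0.20 in knockout and -1.19 ± 0.20 in wild type cultures (adjusted p = 0.000699, 0.000499 and 0.000241). A second, dim probe set of Pole with a mean signal of 2.92 gave 0.21 in mosaic, -0.09 in knockout and 0.31 in wild type cultures. Pole2, the second subunit of the same enzyme, had 4.86, 5.13 and 5.70 in mosaic, 4.89, 5.22 and 5.17 in knockout and 5.21, 4.97 and 4.96 in wild type cultures at day 4, against 6.30, 6.28 and 6.14 in mosaic, 6.12, 6.53 and 5.95 in knockout and 5.77, 6.22 and 5.91 in wild type cultures at day 0. It separated by day in each genotype as Pole did, and its changes were -1.01 ± 0.19 in mosaic, -1.11 ± 0.19 in knockout and -0.92 ± 0.19 in wild type cultures.

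Polymerase alpha and primase, which lay down the primers of each new strand, behaved alike in direction and differed in size. Pola1, the catalytic subunit of polymerase alpha, had 5.87, 6.07 and 6.01 in mosaic, 5.66, 5.87 and 5.82 in knockout and 5.71, 5.59 and 5.61 in wild type cultures at day 4, against 6.88, 6.75 and 6.67 in mosaic, 6.68, 6.73 and 6.39 in knockout and 6.58, 6.73 and 6.59 in wild type cultures at day 0. Its replicates were close together and far apart by day, with changes of -0.78 ± 0.10 in mosaic, -0.82 ± 0.10 in knockout and -0.99 ± 0.10 in wild type cultures (adjusted p = 1.50e-05, 9.77e-06 and 1.38e-06). Prim1, the catalytic subunit of primase, had 6.61, 6.89 and 6.91 in mosaic, 6.56, 6.53 and 6.35 in knockout and 6.29, 6.53 and 6.57 in wild type cultures at day 4, against 7.45, 7.25 and 7.18 in mosaic, 7.39, 7.46 and 7.19 in knockout and 7.15, 7.13 and 7.24 in wild type cultures at day 0. Its day 4 signals were highest in mosaic cultures, and the changes were -0.49 ± 0.11 in mosaic, -0.86 ± 0.11 in knockout and -0.71 ± 0.11 in wild type cultures. Pola2, the accessory subunit, fell in knockout (-0.42 ± 0.13) and wild type cultures (-0.35 ± 0.13) and had -0.21 ± 0.13 in mosaic cultures. Pold1, the catalytic subunit of polymerase delta, had the same pattern of calls, with -0.38, -0.45 and -0.45 in mosaic, knockout and wild type cultures. Prim2, the large primase subunit, had 8.07, 8.40 and 8.30 in mosaic, 8.07, 8.07 and 8.11 in knockout and 7.97, 8.13 and 7.87 in wild type cultures at day 4, against 8.50, 8.50 and 8.22 in mosaic, 8.33, 8.46 and 8.20 in knockout and 8.26, 8.35 and 8.25 in wild type cultures at day 0. Only the mosaic groups overlapped, and of the changes of -0.15 ± 0.11 in mosaic, -0.24 ± 0.11 in knockout and -0.30 ± 0.11 in wild type cultures only that in wild type cultures was called (adjusted p = 0.0403).

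The sliding clamp and its loader had medians of -0.20 in mosaic, -0.23 in knockout and -0.24 in wild type cultures. In each genotype 1 gene of 5 was called. Of all genes tested, 11.9% fell in mosaic, 12.4% in knockout and 16.3% in wild type cultures, so this count does not stand out. The gene called was Rfc5, a clamp loader subunit. It had 6.49, 6.71 and 6.75 in mosaic, 6.37, 6.66 and 6.53 in knockout and 6.27, 6.64 and 6.28 in wild type cultures at day 4, against 7.07, 7.04 and 6.96 in mosaic, 6.94, 7.07 and 6.79 in knockout and 6.77, 6.92 and 6.83 in wild type cultures at day 0. No day 4 array overlapped the day 0 arrays of its genotype, and the changes were -0.37 ± 0.11 in mosaic, -0.42 ± 0.11 in knockout and -0.45 ± 0.11 in wild type cultures (adjusted p = 0.0216, 0.0111 and 0.00619). Pcna, the ring that holds polymerases on DNA, had 9.20, 9.34 and 9.56 in mosaic, 9.06, 9.32 and 9.18 in knockout and 9.23, 9.32 and 9.30 in wild type cultures at day 4, against 9.59, 9.59 and 9.22 in mosaic, 9.46, 9.43 and 9.04 in knockout and 9.38, 9.48 and 9.34 in wild type cultures at day 0. The days overlapped in mosaic and knockout cultures, and its changes of -0.10 ± 0.13 in mosaic, -0.13 ± 0.13 in knockout and -0.12 ± 0.13 in wild type cultures were not called. Rfc1, Rfc2 and Rfc3, which load that ring, had changes between -0.34 (Rfc1, wild type) and -0.06 (Rfc3, mosaic) and were called in none.

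Strand maturation and single-strand binding genes gave 0 calls of 4 in mosaic, 1 in knockout and 2 in wild type cultures. Of all genes tested, 11.9%, 12.4% and 16.3% fell in the same order, and 4 genes are too few to set the role apart. Lig1, the ligase that seals fragments of the lagging strand, had 6.25, 6.40 and 6.88 in mosaic, 6.32, 6.26 and 6.36 in knockout and 6.28, 6.37 and 6.22 in wild type cultures at day 4, against 7.12, 6.94 and 6.62 in mosaic, 6.97, 7.30 and 6.63 in knockout and 6.66, 7.21 and 7.02 in wild type cultures at day 0. The third mosaic array at day 4 was higher than 1 mosaic array at day 0, while the days did not overlap in knockout or wild type cultures. Lig1 fell in knockout (-0.66 ± 0.18, adjusted p = 0.0118) and wild type cultures (-0.67 ± 0.18, adjusted p = 0.00925) and had -0.38 ± 0.18 in mosaic cultures. Rpa2, a subunit of the protein that coats single-stranded DNA, had 6.78, 6.93 and 7.01 in mosaic, 6.58, 6.88 and 6.94 in knockout and 6.96, 6.77 and 6.81 in wild type cultures at day 4, against 6.87, 6.93 and 6.70 in mosaic, 6.72, 7.21 and 6.78 in knockout and 6.76, 6.92 and 6.85 in wild type cultures at day 0. Its days overlapped throughout, with changes of 0.07 ± 0.13 in mosaic, -0.10 ± 0.13 in knockout and 0.00 ± 0.13 in wild type cultures. Rpa1, the large subunit of the same protein, was called in wild type cultures (-0.35 ± 0.13, adjusted p = 0.0473), and there a second, dim probe set gave 0.11. That call was lost under 11 of 16 alternatives, among them leaving out any 1 of the 6 wild type arrays, with an adjusted p of 0.0174 to 0.455. Fen1, which trims flaps from lagging strand fragments, had 5.45, 5.53 and 5.91 in mosaic, 5.38, 5.01 and 5.65 in knockout and 5.44, 5.58 and 5.36 in wild type cultures at day 4, against 5.67, 5.52 and 5.65 in mosaic, 5.60, 5.74 and 5.66 in knockout and 5.78, 5.85 and 5.56 in wild type cultures at day 0. The days overlapped in each genotype and no change was called (0.01, -0.32 and -0.27 in mosaic, knockout and wild type cultures), and a second probe set of like brightness gave 0.03, 0.31 and -0.15.

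Nucleotide supply held the gene with the largest fall of all 44. Rrm2, the regulated small subunit of ribonucleotide reductase, had 5.07, 6.13 and 6.0 in mosaic, 5.30, 5.67 and 5.49 in knockout and 5.28, 5.64 and 5.57 in wild type cultures at day 4, against 7.11, 7.09 and 7.06 in mosaic, 7.12, 7.15 and 6.84 in knockout and 6.95, 7.04 and 7.18 in wild type cultures at day 0. All day 0 arrays were at or above 6.84 and all day 4 arrays at or below 6.13, and within day 4 the first mosaic array was the lowest and the other mosaic arrays were the highest. The changes were -1.36 ± 0.20 in mosaic, -1.55 ± 0.20 in knockout and -1.56 ± 0.20 in wild type cultures (adjusted p = 6.77e-05, 1.80e-05 and 1.70e-05), or 2.56-fold, 2.94-fold and 2.94-fold lower. A second probe set at a mean signal of 2.46, well under the array median, gave -0.23, -0.16 and 0.11. Rrm1, the large subunit, fell less (-0.63, -0.81 and -0.66 in mosaic, knockout and wild type cultures).

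Thymidine kinase and the enzymes of thymidylate supply differed from each other. Tk1, which salvages thymidine in S phase, had 5.74, 5.53 and 6.06 in mosaic, 5.14, 5.84 and 5.66 in knockout and 6.22, 6.13 and 5.89 in wild type cultures at day 4, against 6.56, 6.79 and 6.38 in mosaic, 6.58, 6.62 and 6.41 in knockout and 6.41, 6.41 and 6.23 in wild type cultures at day 0. Day 4 lay below day 0 in each genotype, and the wild type arrays at day 4 were the highest of that day apart from the third mosaic array. Tk1 fell in mosaic (-0.80 ± 0.17, adjusted p = 0.00162) and knockout cultures (-0.99 ± 0.17, adjusted p = 0.000265) and had -0.27 ± 0.17 in wild type cultures (adjusted p = 0.222). Tyms, thymidylate synthase, had 6.80, 7.42 and 7.10 in mosaic, 6.92, 6.79 and 7.06 in knockout and 6.93, 6.94 and 6.49 in wild type cultures at day 4, against 6.79, 7.32 and 7.05 in mosaic, 7.04, 7.02 and 6.97 in knockout and 7.26, 7.13 and 7.13 in wild type cultures at day 0. Its mosaic and knockout groups overlapped by day and its wild type groups did not, and changes of 0.06 ± 0.16 in mosaic, -0.08 ± 0.16 in knockout and -0.39 ± 0.16 in wild type cultures were not called. Dut, which removes dUTP from the nucleotide pool, had 6.64, 6.92 and 7.22 in mosaic, 6.68, 6.79 and 6.94 in knockout and 6.71, 6.80 and 6.87 in wild type cultures at day 4, against 7.03, 6.86 and 6.90 in mosaic, 7.06, 6.89 and 6.86 in knockout and 6.79, 6.89 and 6.83 in wild type cultures at day 0. The days overlapped in each genotype and the changes were 0.00 ± 0.12 in mosaic, -0.14 ± 0.12 in knockout and -0.04 ± 0.12 in wild type cultures.

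Repair and chromatin assembly genes fell in 1 of 5 cases in mosaic, 2 in knockout and 2 in wild type cultures. The share of all genes tested that fell was 11.9%, 12.4% and 16.3% in the same order. Brca1, which acts in repair by homologous recombination, had 5.03, 5.35 and 6.02 in mosaic, 5.10, 5.52 and 4.84 in knockout and 4.90, 5.32 and 5.43 in wild type cultures at day 4, against 6.31, 6.05 and 5.89 in mosaic, 6.03, 6.11 and 5.84 in knockout and 5.67, 6.04 and 6.07 in wild type cultures at day 0. The third mosaic array at day 4 was above 1 mosaic array at day 0, and the days did not overlap in knockout or wild type cultures. Brca1 fell in knockout (-0.84 ± 0.22, adjusted p = 0.00927) and wild type cultures (-0.71 ± 0.22, adjusted p = 0.0211) and missed the threshold in mosaic cultures (-0.62 ± 0.22, adjusted p = 0.0514). Uhrf1, which guides maintenance of DNA methylation behind the fork, had 5.55, 6.30 and 6.54 in mosaic, 5.83, 5.97 and 6.03 in knockout and 6.23, 6.20 and 6.37 in wild type cultures at day 4, against 7.02, 6.85 and 6.77 in mosaic, 7.09, 7.09 and 6.43 in knockout and 6.57, 6.83 and 6.67 in wild type cultures at day 0. Its days did not overlap within a genotype, and it fell in mosaic (-0.75 ± 0.20) and knockout cultures (-0.93 ± 0.20) and had -0.43 ± 0.20 in wild type cultures (adjusted p = 0.119).

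Chaf1a and Chaf1b encode subunits of the factor that places histones on new DNA. Chaf1a had 5.66, 6.13 and 6.21 in mosaic, 5.87, 5.72 and 5.88 in knockout and 5.38, 5.72 and 5.81 in wild type cultures at day 4, against 6.16, 6.19 and 6.35 in mosaic, 6.03, 6.19 and 5.87 in knockout and 6.06, 6.22 and 5.95 in wild type cultures at day 0. The days separated in wild type cultures alone, where it fell (-0.44 ± 0.14, adjusted p = 0.0247), beside -0.23 in mosaic and -0.20 in knockout cultures. Chaf1b had 5.96, 6.13 and 6.56 in mosaic, 5.53, 6.08 and 6.08 in knockout and 5.99, 6.56 and 6.42 in wild type cultures at day 4, against 6.81, 6.82 and 6.26 in mosaic, 6.61, 6.90 and 5.93 in knockout and 6.35, 6.52 and 6.24 in wild type cultures at day 0. Of its day 0 arrays, 1 was low in mosaic and knockout cultures, the days overlapped throughout, and -0.41 ± 0.24 in mosaic, -0.58 ± 0.24 in knockout and -0.04 ± 0.24 in wild type cultures were not called. Ung, the uracil glycosylase that clears uracil from DNA, had 4.68, 4.71 and 5.0 in mosaic, 4.58, 4.94 and 4.66 in knockout and 5.04, 4.75 and 4.88 in wild type cultures at day 4, against 4.65, 4.77 and 4.65 in mosaic, 4.52, 4.70 and 4.46 in knockout and 4.77, 4.62 and 4.48 in wild type cultures at day 0. It was the 1 gene with a positive estimate in each genotype (0.11 ± 0.12 in mosaic, 0.17 ± 0.12 in knockout and 0.26 ± 0.12 in wild type cultures), with overlapping days and no call (adjusted p = 0.587, 0.347 and 0.102).

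The regulators of S phase entry on the list gave no call. E2f1, an activator of many genes named above, had 5.70, 5.48 and 5.82 in mosaic, 5.45, 5.76 and 5.61 in knockout and 5.94, 5.82 and 5.73 in wild type cultures at day 4, against 5.69, 5.75 and 5.73 in mosaic, 5.65, 6.02 and 5.81 in knockout and 5.75, 5.75 and 5.62 in wild type cultures at day 0. Its days overlapped in each genotype, and the changes were -0.05 ± 0.11 in mosaic, -0.22 ± 0.11 in knockout and 0.12 ± 0.11 in wild type cultures. Ccne1, a cyclin that drives the G1 to S transition, had 5.88, 6.53 and 6.18 in mosaic, 6.10, 6.15 and 6.03 in knockout and 6.24, 6.17 and 6.54 in wild type cultures at day 4, against 6.29, 6.50 and 5.91 in mosaic, 6.13, 6.40 and 5.72 in knockout and 6.09, 6.05 and 6.07 in wild type cultures at day 0. In wild type cultures the day 4 arrays stood above the day 0 arrays by 0.25 ± 0.18 (adjusted p = 0.305), and in mosaic (-0.04) and knockout cultures (0.01) the days overlapped.

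**Figure D3:**
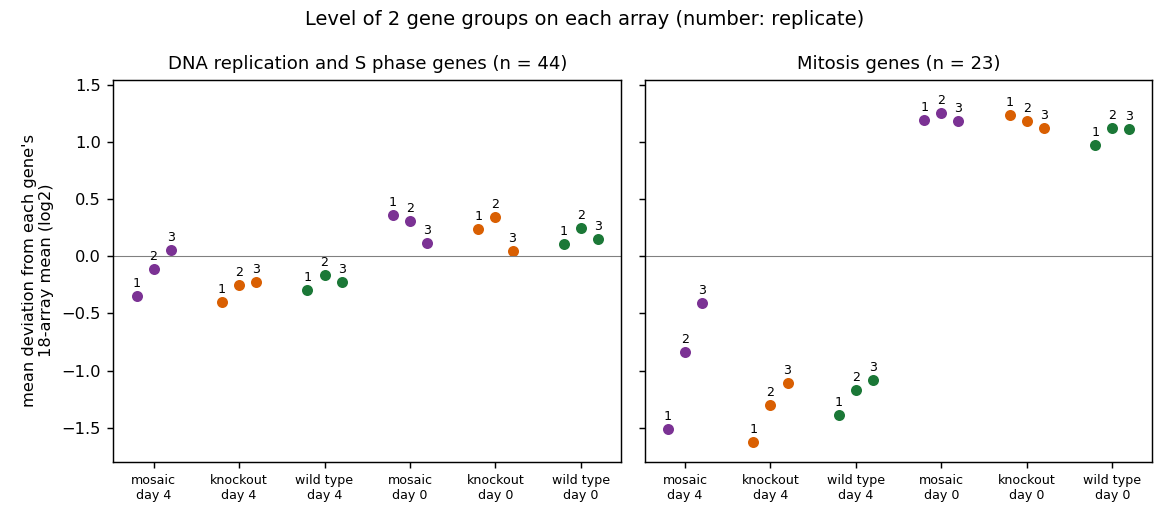
Mean deviation of the 44 replication genes (left) and of 23 mitosis genes (right) from each gene's mean over the 18 arrays, by group, with the replicate number above each point. The third mosaic array at day 4 is the highest of the 9 day 4 arrays in both panels, at 0.06 and -0.41.

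The arrays of the mosaic day 4 group were spread further than the others. The mean deviation of the 44 genes from their own 18-array means was -0.35, -0.11 and 0.06 on the 3 mosaic arrays at day 4, -0.40, -0.25 and -0.22 on the knockout arrays and -0.29, -0.16 and -0.22 on the wild type arrays. At day 0 it was 0.36, 0.31 and 0.12 on the mosaic, 0.24, 0.35 and 0.05 on the knockout and 0.11, 0.25 and 0.15 on the wild type arrays. The third mosaic array at day 4 was thus level with the lowest knockout array at day 0. Mitosis genes gave the same order within the mosaic day 4 group, at -1.51, -0.84 and -0.41. Without the third mosaic array at day 4, 22 of the 44 genes fell in mosaic cultures (median -0.47), and without the first, 13 did (median -0.29). Without the second wild type array at day 0, 14 fell in wild type cultures.

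Other replication genes, listed beside the 44, were called in the lower direction or not at all. Of 36 further replication factors, 15 fell in mosaic, 18 in knockout and 15 in wild type cultures and 0 rose, with medians of -0.26, -0.31 and -0.31. Dbf4, the activator of the Cdc7 kinase that fires origins, fell in each genotype (-1.36 in mosaic, -1.64 in knockout and -1.59 in wild type cultures). Ticrr, which helps bring Cdc45 to origins, fell as well (-1.38, -1.65 and -1.48), and so did Mcm8, a relative of the ring subunits (-0.72, -0.80 and -0.83). Of 13 genes of replication-coupled chromatin and checkpoint control, 9, 10 and 9 fell, with Atad2, a chromatin ATPase, at -1.26, -1.47 and -1.45 and Hells, a chromatin remodeller, at -0.95, -1.0 and -0.82.

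Mitosis genes had larger changes in the same cultures. All 23 that were tested fell in each genotype, with medians of -2.16 in mosaic, -2.71 in knockout and -2.36 in wild type cultures and a weakest change of -1.40, -1.74 and -1.49, in each case in Aurkb, a mitotic kinase. The largest fall among the 44 genes, that of Rrm2, reached -1.36, -1.55 and -1.56 in the same order. Ndc80, a kinetochore protein, had -2.42, -3.01 and -2.99, and Prc1, a spindle midzone protein, had -2.79, -3.09 and -2.98. Among 22 E2F, pocket protein and cyclin regulators, 12 fell and 3 rose in mosaic, 11 fell and 4 rose in knockout and 11 fell and 3 rose in wild type cultures. Ccna2, the S and G2 phase cyclin A, fell most (-2.10, -2.67 and -2.40), and E2f8, a repressor of the E2F family, followed (-1.29, -1.59 and -1.42). Tfdp1, the partner of E2F proteins, rose by 0.63, 0.58 and 0.34.

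**Figure D4:**
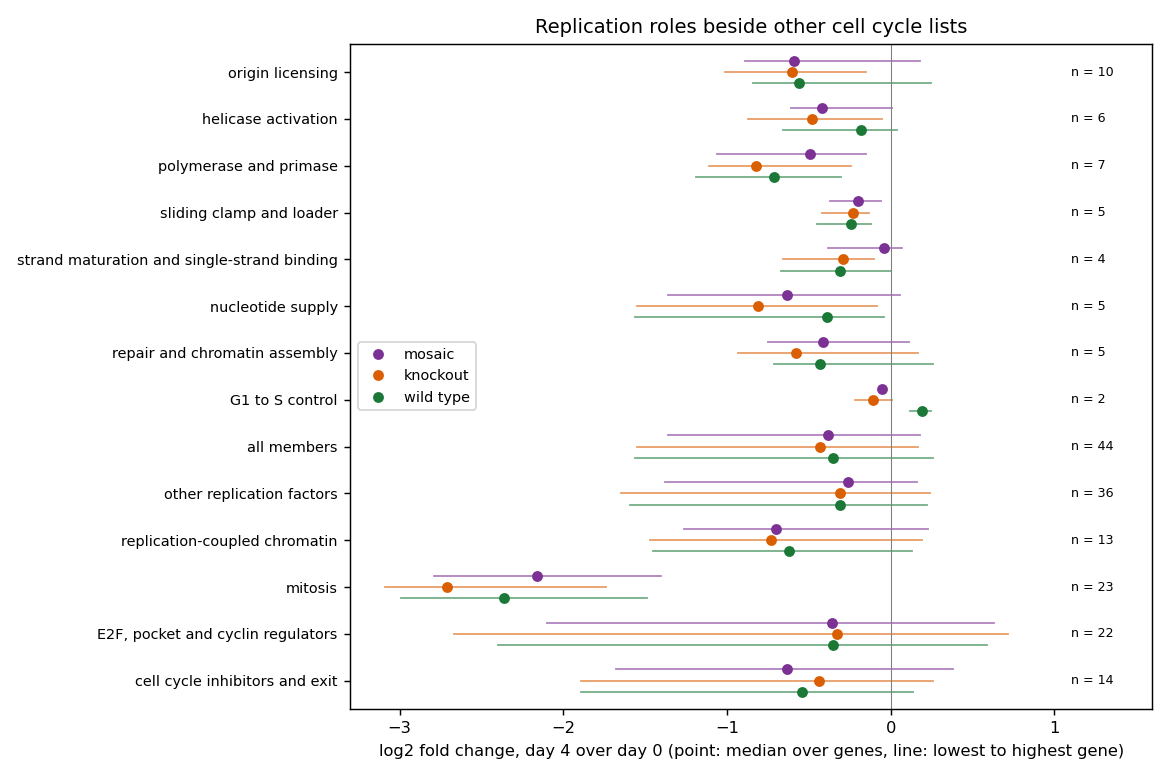
Median log2 fold change of day 4 over day 0 (point) and the lowest and highest gene (line) for each role, for the 44 genes together and for other cell cycle lists, by genotype, with the number of genes tested at the right. The medians of mitosis genes, from -2.71 to -2.16, lie well below those of every replication role, which run from -0.82 to 0.19.

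Markers of cell types moved over the same 4 days, and their part in the fall of replication genes was not tested. All 11 oligodendrocyte markers rose in each genotype, with a mean log2 signal over the list of 8.53 to 9.08 at day 4 and 5.71 to 6.09 at day 0. Of 12 neuron markers 7 rose in each genotype and Elavl4, a neuronal RNA-binding protein, fell in mosaic (-0.44) and wild type cultures (-0.51), with mean levels of 7.18 to 7.90 at day 4 and 6.56 to 6.85 at day 0. Of 10 astrocyte markers 7 rose and 2 fell in each. Gfap, an intermediate filament protein, fell most (-1.11 in mosaic, -1.20 in knockout and -1.68 in wild type cultures). Of 9 neural stem cell markers 5 fell in each, among them Hes1 and Nes, while Sox2 was not called, and 1 rose in mosaic, 2 in knockout and 1 in wild type cultures. Prom1, a membrane protein used as a stem cell marker, rose in each (0.73, 0.57 and 0.48 in mosaic, knockout and wild type cultures), and Msi1, an RNA-binding protein, in knockout cultures (0.30). Microglia and macrophage markers gave 0 or 1 call of 9, at mean levels of 4.65 to 4.95 on all arrays, near the array median. Endothelial and fibroblast markers gave 1 or 2 of 9, at 4.76 to 5.29, with Pdgfrb, a pericyte and mesenchymal receptor, higher by 2.06 to 2.29.

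No replication gene differed between Pcdh19 genotypes by the test, before or after differentiation. In all 6 comparisons between genotypes and all 3 comparisons of their differentiation, 0 of 44 genes were called, as were 0% of the 19016 genes tested. Those include Pcdh19 itself, at -1.27 ± 0.26 at day 0 and -1.20 ± 0.26 at day 4 in knockout against wild type cultures. An absent call is thus not evidence of equal levels. At an unadjusted p under 0.05, 1 of the 44 genes differed in mosaic against wild type cultures at day 0 and 6 at day 4, 0 and 1 in mosaic against knockout, and 0 and 2 in knockout against wild type cultures. The share of all genes tested at that level was 4.30% and 15.9%, 4.24% and 6.07%, and 3.61% and 12.7% in the same order. None of the 44 genes had a 95% confidence interval that reached a 2-fold difference in these 6 comparisons, and the median interval extended 0.28 to each side. The members of each comparison named next are its 3 largest differences, and the comparisons share groups, so they are not independent.

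At day 4, Mcm4, Pola1, Prim1, Prim2, Rfc5 and Chaf1a had an unadjusted p under 0.05 between mosaic and wild type cultures, each with a higher estimate in mosaic and none called. These 6 of 44 are no larger a share than the 15.9% of all genes tested at that level. The difference was 0.36 ± 0.14 for Chaf1a (95% interval 0.06 to 0.66, limma adjusted p = 0.249), 0.34 ± 0.10 for Pola1 (0.13 to 0.55, 0.168) and 0.34 ± 0.11 for Prim1 (0.11 to 0.57, 0.185). The day 4 signals of Pola1 were 5.87, 6.07 and 6.01 in mosaic and 5.71, 5.59 and 5.61 in wild type cultures, without overlap. Those of Prim1 were 6.61, 6.89 and 6.91 in mosaic and 6.29, 6.53 and 6.57 in wild type cultures, also without overlap, and those of Chaf1a overlapped. Both genes were picked for the size of the difference, so the lack of overlap is not further evidence. Its share over all genes was not counted between genotypes. Without the first mosaic array at day 4, Rrm2 was higher in mosaic than in wild type cultures (0.57 ± 0.13, adjusted p = 0.0475), together with 1.35% of all genes tested, and without it the median of the 44 differences was 0.21. Without the third mosaic array at day 4 that median was -0.01, beside 0.10 with all arrays. At day 0 the largest differences between mosaic and wild type cultures were in Gins3 (0.30 ± 0.18), Pole2 (0.27 ± 0.19) and Chaf1b (0.26 ± 0.24).

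Knockout cultures at day 4 had less Tk1 signal than wild type cultures on each array, at 5.14, 5.84 and 5.66 in knockout and 6.22, 6.13 and 5.89 in wild type cultures. The difference was -0.53 ± 0.17 (95% interval -0.89 to -0.18, unadjusted p = 0.00546 and adjusted p = 0.258 from limma), and it was not called. Tk1 was picked as the largest difference of this comparison, so the separation of its arrays is not further evidence. Chaf1b (-0.43 ± 0.24) and Uhrf1 (-0.32 ± 0.20) followed in size, with intervals that hold 0. Orc1 had -0.31 ± 0.12 with an unadjusted p of 0.0174 and an adjusted p of 0.304. At day 0 the largest differences between knockout and wild type cultures were in Gins3 (0.29 ± 0.18), Pole2 (0.24 ± 0.19) and Uhrf1 (0.18 ± 0.20).

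Between mosaic and knockout cultures the largest differences at day 4 were in Mcm5 (0.33 ± 0.18), Chaf1b (0.32 ± 0.24) and Prim1 (0.32 ± 0.11, 95% interval 0.09 to 0.55, adjusted p = 0.762). Each of these was higher in mosaic cultures, the group that holds the high array, as were 40 of the 44 estimates. The estimates come from the same arrays and are not independent, and the median over all genes tested was 0.00. The median of the 44 differences was 0.18, and it was 0.07 without the third mosaic array at day 4, 0.27 without the first mosaic array and 0.12 without the first knockout array of that day. At day 0 they were in Mcm3 (0.35 ± 0.19), Chaf1a (0.20 ± 0.14) and Gins2 (0.19 ± 0.11), none of them called.

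**Figure D5:**
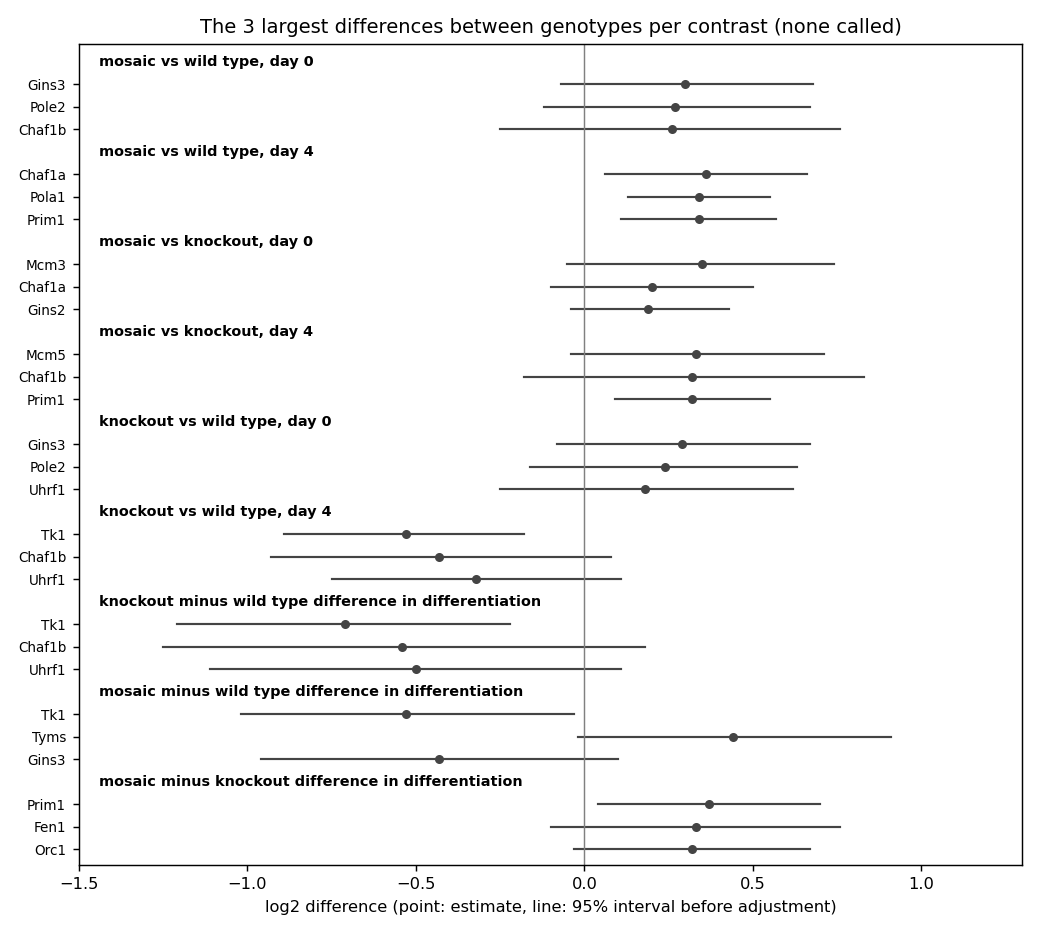
The 3 largest log2 differences among the 44 genes in each of the 9 comparisons between genotypes, with lines for the 95% interval before adjustment. No interval in the 6 comparisons within a day reaches 1 on either side, and none of the differences was called after adjustment.

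The differences in differentiation between genotypes were less precise, with a median standard error of 0.178 over all genes. Tk1 gave the largest one, with a change in knockout cultures minus that in wild type cultures of -0.71 ± 0.24 (95% interval -1.21 to -0.22, unadjusted p = 0.00779 and adjusted p = 0.388 from limma). The same gene headed mosaic minus wild type (-0.53 ± 0.24, adjusted p = 0.387), a comparison that shares the wild type arrays. Chaf1b (-0.54 ± 0.34) and Uhrf1 (-0.50 ± 0.29) came next in knockout minus wild type, and Tyms (0.44 ± 0.22) and Gins3 (-0.43 ± 0.25) in mosaic minus wild type. In mosaic minus knockout they were Prim1 (0.37 ± 0.16), Fen1 (0.33 ± 0.20) and Orc1 (0.32 ± 0.17). At an unadjusted p under 0.05 there were 1, 3 and 1 of the 44 genes in mosaic minus wild type, knockout minus wild type and mosaic minus knockout, beside 12.4%, 9.51% and 4.29% of all genes tested. The calls of Cdc45, Tk1 and Uhrf1 in mosaic and knockout but not wild type cultures are therefore not shown to differ between genotypes.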

How the data were processed

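The values were deposited by the authors after normalization, 1 for each probe set and array, on a scale taken here as log2 from their range (0.722 to 13.97, with array medians of 4.85 to 4.99). For the normalization, the background step and the base of the logarithm, the method is not given in the sources used here. No scanner files were used here, so there was no detection call. Per the labels' protocols, the RNA came from a Trizol extraction followed by column purification.

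Gene names came from the platform annotation of the probe sets. Of 41345, 23521 had 1 symbol and were used, 1814 had several and 16010 had none listed. A linear model with a mean per group was fitted to all 18 arrays with limma 3.58.1 in R 4.3.3 (lmFit and eBayes, two-sided, 12 residual and 4.36 prior degrees of freedom). A gene was called at a Benjamini-Hochberg adjusted p under 0.05. Errors of log2 fold changes are standard errors. The code was tested on simulated data. The number of arrays limits the precision.

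The members, roles and lists were chosen with earlier results of these data known. Values on each array are given for the largest and smallest mean change of each role, for members whose sign differed from most, and for the 3 largest differences of each genotype comparison, beside the genes they are described with. Of other lists, up to 4 called genes with the largest wild type change may be named. Hells, Mcm8, Tfdp1, Hes1, Nes, Sox2, Prom1, Msi1, Elavl4, Pdgfrb and Aurkb fall outside that rule in part and were chosen after their values were seen. Gfap was also named after its values were seen. The alternatives tried were other normalizations, filters, probe set rules, variance models, thresholds, the replicate number as a block and leaving out each array. A planned search of protein sequences was not run.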

Additional observations from a re-analysis of the deposited data

How the results depend on the processing

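In 41 of 64 cases a call over differentiation held in every alternative run, and 23 were lost in at least 1. In mosaic cultures the count of 20 genes lower became 13 with the 2 groups fitted alone and 12 at an adjusted p under 0.01. Leaving out 1 array in turn gave 13 to 22 genes in mosaic (13 without the first day 4 array), 17 to 23 in knockout and 14 to 25 in wild type cultures (14 without the second day 0 array), and 0 to 1 in mosaic against wild type cultures at day 4. No other alternative called a member between genotypes. With the replicate number as a block, 21 genes fell in mosaic, 22 in knockout and 20 in wild type cultures. Same-numbered arrays were checked for shared deviations, and 0 of 9 comparisons had every correlation of deviations above 0.1 (range -0.15 to 0.17). Between day 4 and day 0 of a genotype the correlations were all positive and weak, from 0.02 to 0.16. Between genotypes they had both signs. These correlations were taken over all genes tested. For the 44 genes and for mitosis genes, the first day 4 array was the lowest of its genotype in each case. With 3 arrays per group these values do not settle whether the numbers pair the samples. The sign turned only for log2 fold changes, day 4 over day 0, that were small and not called. With quantile normalization the values were Gins4 0.00, Dut 0.01 and Ccne1 0.00 in mosaic, and Dut 0.06 and Chaf1b 0.04 in wild type cultures. With a common array median, Dut 0.04 and Ccne1 0.01 in mosaic, and Gins3 -0.01 and Rpa2 -0.03 in wild type cultures. With probe sets of a gene averaged, Rpa1 0.03 and Dut 0.02 in mosaic, and Dut 0.04 in knockout cultures. With array weights, Fen1 0.00, Dut 0.01 and Ccne1 0.03 in mosaic, and Rpa2 -0.01 in wild type cultures. In mosaic cultures leaving out 1 array gave -0.02 to 0.04 for Gins4, -0.18 to 0.06 for Rfc3, -0.10 to 0.21 for Tyms, -0.15 to 0.14 for Dut, -0.13 to 0.10 for Fen1, -0.21 to 0.12 for Ccne1, -0.21 to 0.02 for Rpa1 and -0.13 to 0.04 for E2f1. In knockout cultures leaving out 1 array gave -0.19 to 0.05 for Rpa2, -0.18 to 0.16 for Ccne1, -0.16 to 0.02 for Gins2 and -0.08 to 0.03 for Gins4. In wild type cultures leaving out 1 array gave -0.05 to 0.04 for Rpa2, -0.16 to 0.12 for Chaf1b and -0.23 to 0.22 for Gins3. The cause was not tested. The median SE of a log2 fold change, 0.126 over the genes tested for day 4 against day 0, and the missing detection calls limit what could be seen in dim genes.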

Other observations

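Most of the listed genes that hold cells out of the cycle fell over the same 4 days. Of 14 cell cycle inhibitors and exit genes tested, 11 fell and 1 rose in mosaic, 8 fell and 0 rose in knockout and 8 fell and 0 rose in wild type cultures at day 4 relative to day 0 (limma, adjusted p under 0.05). Of all genes tested, 11.9% fell and 14.4% rose in mosaic, 12.4% and 15.0% in knockout and 16.3% and 17.2% in wild type cultures. The medians of the 14 genes were -0.63, -0.44 and -0.54 in mosaic, knockout and wild type cultures. Cdkn1a, the inhibitor p21, had -1.59 in mosaic, -1.61 in knockout and -1.38 in wild type cultures, and Gadd45b, a stress response gene, had -1.68, -1.89 and -1.89. Cdkn2c, an inhibitor of Cdk4 and Cdk6, had -1.24, -1.65 and -1.30, and Btg1, an antiproliferative gene, had -0.93, -0.83 and -1.15. Cdkn1c, the inhibitor p57, rose in mosaic cultures by 0.38 and had 0.26 in knockout and 0.14 in wild type cultures. Whether the cell types that appeared over the 4 days bear on these values was not tested.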
